A study of Mus musculus with 3 samples.

Results

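Among the B cells of mouse mesenteric lymph node, 304 barcodes carried transcripts of genes that B cells switch on early after their receptor is engaged, and these are described here as recently activated B cells. They were 304 of 12927 B barcodes (2.35%) and of 67002 barcodes kept in all. A barcode stands for a droplet, usually holding a single cell, and a UMI is a tag that counts an RNA molecule once. The members were chosen by a fixed rule. A B barcode had at least 300 detected genes, at most 10% mitochondrial UMIs, at least 3 UMIs of Cd79a, Cd79b and Ms4a1 together with at least 2 of these 3 genes seen, and no UMI of Cd3d, Cd3e or Cd3g. It also had no UMI of the interferon-induced genes Ifit1, Ifit3 or Usp18. A member had, in addition, at least 1 UMI for at least 3 of the 6 genes Egr3, Ccl4, Mir155hg, Nfkbid, Nr4a1 and Rasgef1b. The other 12623 B barcodes, with 0 to 2 of the 6 genes, are the group it is set against. Because the rule used measured values, every contrast of members with other B barcodes is a description and carries no test.

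The data were single-cell RNA profiles of 3 mouse groups. The animals were fed for 4 weeks by mouth with 5 mM citrate buffer, with 1 µg of ovalbumin alone (free OVA) or with 1 µg of ovalbumin in nanoparticles of lyso-phosphatidylserine (LysoPS-OVA). The buffer library carries the title of an untreated control, although its treatment label names the buffer. The sources used here give no strain, sex or age. Nodes of the 6 animals in a group were pooled into a single suspension by enzymatic digestion and dead cells were removed, so there was 1 library a group and no spread between animals could be estimated. Wherever 3 values stand together without a name, they are in the order buffer, free OVA, LysoPS-OVA. No test between groups was possible, and the 95% intervals given below cover counting error only. The labels call the cells intestinal cells, but the tissue is mesenteric lymph node, and all 12 B cell markers listed were seen in members of each library.

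When antigen engages the B cell receptor, calcium, kinase and NF-kB signals switch on a first wave of genes within the resting cell. This wave holds transcription factors of the EGR and NR4A families, inhibitors that limit the response, the precursor of the microRNA miR-155, and surface molecules such as CD83 and CD69. It precedes growth, division and entry into germinal centres. In mesenteric lymph node, which drains the gut, such cells may meet antigens of food and of the microbiota, and enzymatic digestion of tissue can itself switch on some immediate early genes.

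The sequences below show what the rule genes carry. Mir155hg (chr16:84703167-84715245, + strand, mm10, a long non-coding RNA) is the host transcript of miR-155, a microRNA known to shape B cell responses, so its 2 mature products are given with the seed, bases 2 to 8, in capitals. They are RefSeq sequences on GRCm38.p6, the assembly behind mm10.
mmu-miR-155-5p (chr16:84714143-84714165, + strand): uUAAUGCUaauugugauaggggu
mmu-miR-155-3p (chr16:84714182-84714202, + strand): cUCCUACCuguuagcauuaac
The library counts the host transcript and not these mature products.

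Promoter windows from RefSeq, 250 bases ending just before a start site, were at hand for 4 of the 6 rule genes. The 3 windows that held a motif listed below are printed. The window of Mir155hg and those at the other start sites of Nfkbid held none. Capitals mark the motif matches, apart from those to the shorter core TGACG, which are left in lower case outside the full element. Nfkbid (chr7:30421732-30428746, + strand) encodes IkappaBNS, a nuclear regulator of NF-kB that B cells need for antigen responses. Nr4a1 (chr15:101254269-101274795, + strand) encodes the orphan nuclear receptor NUR77, widely used as a reporter of antigen receptor signals. Rasgef1b (chr5:99217426-99729065, - strand) encodes an exchange factor for small GTPases.
Nfkbid, the second of its start sites (chr7:30422156-30422405, + strand): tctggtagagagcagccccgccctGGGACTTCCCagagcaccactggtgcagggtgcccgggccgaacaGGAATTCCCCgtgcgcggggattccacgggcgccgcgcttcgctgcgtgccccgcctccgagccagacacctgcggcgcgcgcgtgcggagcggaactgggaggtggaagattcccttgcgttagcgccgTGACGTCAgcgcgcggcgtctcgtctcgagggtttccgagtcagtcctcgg
Nr4a1 (chr15:101266596-101266845, + strand): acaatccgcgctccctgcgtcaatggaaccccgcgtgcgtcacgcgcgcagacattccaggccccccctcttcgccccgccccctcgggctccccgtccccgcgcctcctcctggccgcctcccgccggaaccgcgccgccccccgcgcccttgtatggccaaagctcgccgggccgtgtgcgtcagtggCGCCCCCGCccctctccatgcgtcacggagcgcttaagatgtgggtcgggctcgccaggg
Rasgef1b (chr5:99252928-99253177, - strand): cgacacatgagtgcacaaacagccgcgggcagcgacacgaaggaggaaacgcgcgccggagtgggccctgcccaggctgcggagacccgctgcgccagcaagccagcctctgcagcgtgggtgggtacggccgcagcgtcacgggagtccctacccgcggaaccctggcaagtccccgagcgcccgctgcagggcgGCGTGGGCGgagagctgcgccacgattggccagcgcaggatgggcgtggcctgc
No annotated exon overlaps these 3 windows.

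The Nfkbid window held the full cyclic-AMP response element TGACGTCA, 51 to 44 bases before its start site, and 2 matches to the NF-kB motif. The windows of Nr4a1 and Rasgef1b each held the EGR motif GCGNGGGCG, 60 to 52 and 54 to 46 bases before the start. Both strands were searched. Among all 32851 promoter windows of this length, 1.55% held TGACGTCA, 5.93% the NF-kB motif, 4.70% the EGR motif, 6.75% the AP-1 motif TGANTCA and 1.47% the CArG box. The shorter core TGACG, which the full element contains, was in 17.8% of all windows. Counted by gene over all its start sites, which gives Nfkbid more than a single window, 3 of the 4 rule genes held it. These matches describe letters only. Egr3 (chr14:70077203-70082614, + strand) encodes an EGR transcription factor and Ccl4 (chr11:83662584-83664683, + strand) a chemokine that attracts other leukocytes.

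The deposited libraries held 96616683, 81559237 and 84089686 UMIs in all. They held 28927, 28660 and 20873 barcodes, more than the 10000 cells loaded each. The median UMIs per barcode were 2577, 1492 and 3686. Doublet calls by Scrublet took 16.1%, 7.18% and 7.5% of kept barcodes, against 23.1%, 22.9% and 16.7% expected, and among members they marked 7 of 67, 5 of 113 and 0 of 124. Pairs of libraries shared at most 141 kept barcode sequences, and no barcode sequence was a member in more than 1 library. Among B barcodes with transcripts of Xist or of a Y-linked gene but not both, 57.0%, 76.8% and 87.2% of other B barcodes were on the Y-linked side, and 68.1%, 81.2% and 89.6% of members, so the pools differed in the mix of sexes. The part of this mix in the differences between libraries was not tested.

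Citrate buffer held 67 members, free OVA 113 and LysoPS-OVA 124. Rasgef1b was the rule gene seen most often, in 88.1%, 96.5% and 89.5% of members in that order. Egr3 was seen in 79.1%, 76.1% and 79.8%, and Nfkbid in 79.1%, 73.5% and 78.2%. Nr4a1 was seen in 50.7%, 56.6% and 55.6% of members. Mir155hg was seen in 40.3% (28.5 to 53.0), 35.4% (26.6 to 45.0) and 27.4% (19.8 to 36.2), with intervals that overlap. These shares are set in part by the rule and are given as a description.

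Ccl4 went against the label. It had no UMI in the 67 citrate buffer members, where a count of 0 allows a share of up to 5.36%. A single member carried it in free OVA and a single member in LysoPS-OVA. The free OVA barcode held 195 Ccl4 UMIs and 17 Ccl3 UMIs among 22346, with 46 UMIs of the B markers of the rule and no doublet call. The membership of the remaining barcodes thus rests on the other 5 genes.

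**Figure D1:**
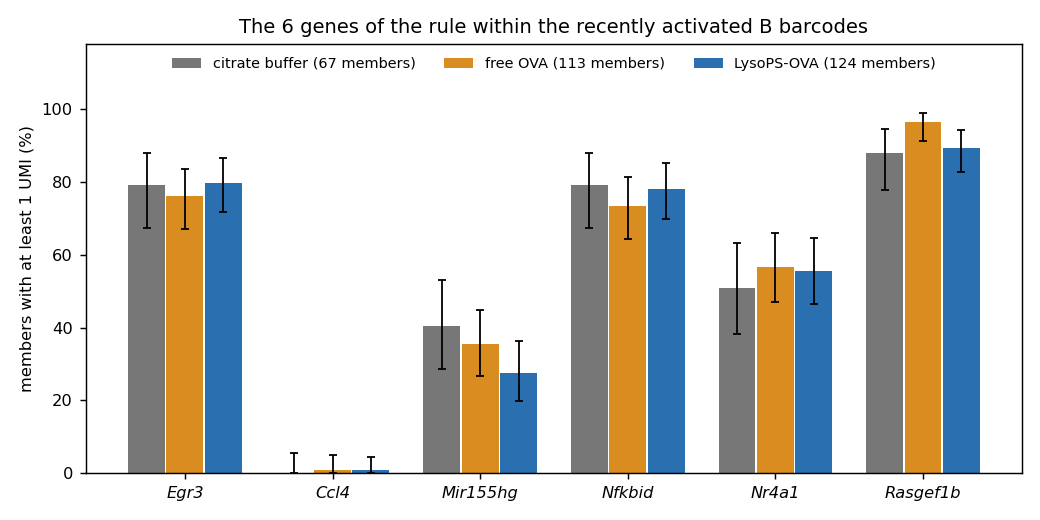
Share of members with at least 1 UMI (%, y axis) for each of the 6 rule genes (x axis) in the 3 libraries, with exact binomial 95% intervals as bars. Rasgef1b, Egr3 and Nfkbid stand above 70% in each library, Mir155hg lies between 27.4% and 40.3%, and Ccl4 is near 0.

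Most members stood at the edge of the rule. Exactly 3 of the 6 genes were seen in 44, 77 and 92 members of the 3 libraries, 4 genes in 21, 28 and 26, 5 genes in 2, 8 and 5, and all 6 in 0, 0 and 1. Just outside the rule, exactly 2 genes were seen in 230, 332 and 348 B barcodes, which were 5.60%, 7.68% and 7.74% of B barcodes. The commonest combination was Egr3, Nfkbid and Rasgef1b without the others, in 16, 27 and 37 members. The same 3 genes with Nr4a1 came next, in 10, 16 and 19 members.

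Most barcodes with a rule gene showed it alone, but for 5 of the 6 genes the share was higher where others were seen, also at equal depth. These are the rule's own genes, chosen with the data known, so this is a description and no test of the rule. For this, each B barcode with at least 2000 UMIs was thinned at random to 2000 UMIs. Egr3 was seen in 3.91% of citrate buffer B barcodes with none of the other 5 genes, in 11% with 1 of them and in 26% with 2 or more. The series was 3.75%, 7.38% and 21.7% in free OVA and 3.11%, 7.06% and 27.8% in LysoPS-OVA. Nfkbid went from 2.15% to 16.7%, from 3.44% to 20.0% and from 4.41% to 24.5% over the same steps. Rasgef1b went from 8.83% to 29.2%, from 10.6% to 33.3% and from 12.5% to 39.3%. Nr4a1 went from 1.14% to 6.02%, from 1.40% to 10.8% and from 1.86% to 12.7%. Mir155hg went from 1.35% to 7.23%, from 0.874% to 2.02% and from 1.65% to 4.55%. Its last shares in free OVA and LysoPS-OVA were 2 of 99 and 6 of 132 barcodes. Their intervals (0.246 to 7.11 and 1.69 to 9.63) overlap those with none of the others (0.572 to 1.28 and 1.25 to 2.15). Ccl4 was seen in none of the thinned B barcodes with 2 or more of the others.

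The share of B barcodes that were members was 1.63% (1.27 to 2.07) with buffer, 2.61% (2.16 to 3.13) with free OVA and 2.76% (2.30 to 3.28) with LysoPS-OVA. LysoPS-OVA stood 1.69-fold above citrate buffer (1.26 to 2.27), free OVA 1.60-fold (1.19 to 2.16), and LysoPS-OVA 1.06-fold above free OVA (0.821 to 1.36). This order moved with depth, since a deeper barcode shows more genes. Other B barcodes held a median of 3526, 5112 and 4343.5 UMIs, and members 5559, 7662 and 5730.5. Below 2000 UMIs the share of members was 0.281%, 0% and 0.422%, and from 12000 UMIs it was 14.6%, 10.8% and 12.9%.

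At 2000 UMIs a barcode the share was 0.442% (15 of 3394, interval 0.248 to 0.728) with buffer, 0.432% (16 of 3702, 0.247 to 0.701) with free OVA and 0.657% (28 of 4259, 0.437 to 0.949) with LysoPS-OVA. This left out 712, 623 and 237 B barcodes with fewer UMIs. The ratio was 1.49 (0.796 to 2.78) for LysoPS-OVA over citrate buffer, 1.52 (0.824 to 2.81) over free OVA and 0.978 (0.484 to 1.97) for free OVA over citrate buffer. All 3 intervals include 1, and they cover counting error within these libraries only. T barcodes thinned to the same 2000 UMIs held 3 of the 6 genes in 0.354%, 0.143% and 0.419%, below the share in B barcodes in each library but with overlapping intervals. T cells also switch on several of these genes after receptor signals.

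A looser count gave another picture at equal depth. At least 1 of the 6 genes was seen in 18.1% (16.9 to 19.5), 20.3% (19.1 to 21.7) and 23.2% (21.9 to 24.5) of thinned B barcodes. The ratio was 1.28 (1.17 to 1.40) for LysoPS-OVA over citrate buffer, 1.14 (1.05 to 1.24) over free OVA and 1.12 (1.02 to 1.23) for free OVA over citrate buffer. The genes did not move alike. In thinned other B barcodes Rasgef1b was seen in 9.07%, 10.8% and 12.6% and Nfkbid in 2.55%, 3.48% and 4.28%. Egr3 went the other way, at 4.42%, 3.65% and 3.05%. Nr4a1 was at 1.32%, 1.31% and 1.84% and Mir155hg at 1.41%, 0.864% and 1.45%. With at least 2 genes, the shares were 2.95%, 3.0% and 3.43%, and the 3 ratios of 1.16, 1.14 and 1.02 all had intervals that include 1.

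**Figure D2:**
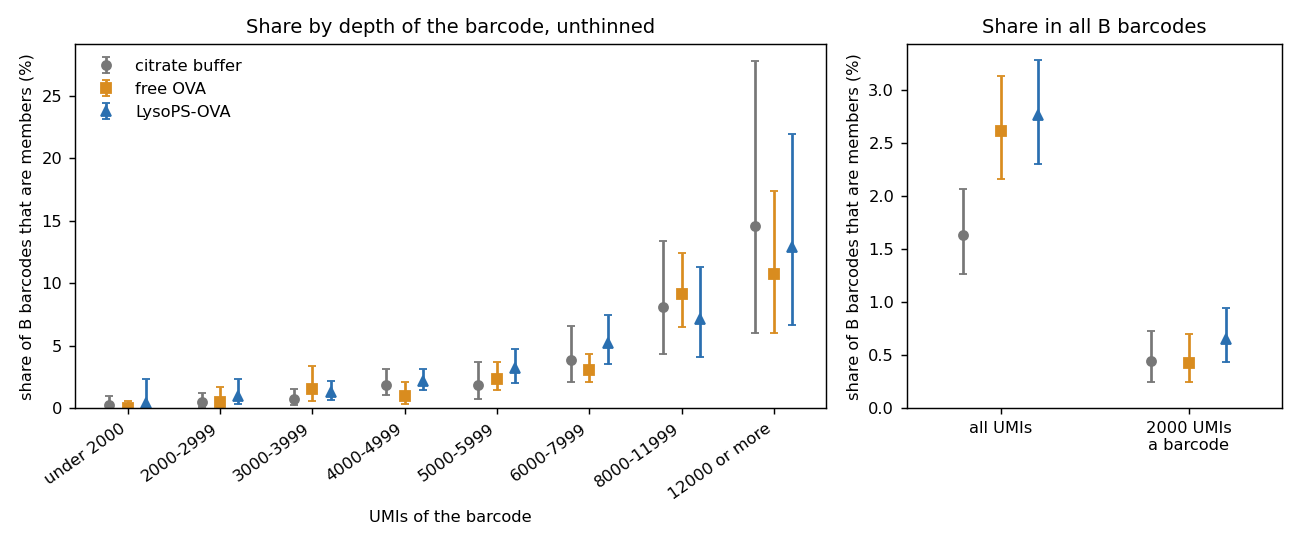
Left, share of B barcodes that are members (%, y axis) by UMIs of the barcode (x axis) in each library, unthinned. Right, the same share over all B barcodes with all UMIs and at 2000 UMIs a barcode, with exact binomial 95% intervals: the share rises with depth in every library, and at 2000 UMIs the 3 intervals overlap.

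The transcripts of members were set against those of other B barcodes in the same library, both thinned to 2000 UMIs and summed and scaled to 1000000 UMIs (CPM). This kept 65, 113 and 123 members and 3329, 3589 and 4136 other B barcodes. A gene was compared where the higher side held at least 50 CPM and 30 UMIs, and log2 ratios were taken after adding 10 CPM, with 2-fold as the threshold of size. In members, 30 UMIs correspond to 231, 133 and 122 CPM, so weak genes higher in members are missing from the comparison, most of all in citrate buffer. A gene lower in members needed only 50 CPM in other B barcodes, since these held many more UMIs. Weak genes could thus enter as lower but not as higher, which weighs on the counts and medians below. Past 2-fold lay 31 genes higher (1.5%) and 115 lower (5.57%) of 2065 in citrate buffer, 32 higher (1.39%) and 25 lower (1.08%) of 2309 in free OVA, and 34 higher (1.4%) and 30 lower (1.23%) of 2433 in LysoPS-OVA. The median log2 ratio of all genes compared was -0.22, -0.09 and -0.10, and single genes are to be read against it. Of the 1418 genes compared in all 3 libraries, 11 (0.776%) were at least 2-fold higher in each, and 3 (0.212%) at least 2-fold lower. Without regard to size, 244 of the 1418 were higher in each library and 639 lower in each. This is the background for the counts of gene lists below, and it carries the same uneven filter.

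Beyond the rule genes, Egr1, a transcription factor of the same family as Egr3, was the gene furthest above other B barcodes. Its level was 385, 221 and 187 CPM in members, against 24.0, 25.1 and 18.4 CPM in other B barcodes. That was 16.0-fold (11.4 to 22.1), 8.82-fold (6.32 to 12.1) and 10.2-fold (7.15 to 14.2). Cd83, a surface protein of activated B cells that stabilises MHC class II and is a marker of the label that the rule did not use, stood at 1192, 987 and 1272 CPM against 256, 242 and 284. Its folds of 4.66 (3.93 to 5.50), 4.08 (3.53 to 4.69) and 4.48 (3.97 to 5.04) were alike in the 3 libraries. Cd83 was seen in 81.5%, 70.8% and 79.7% of thinned members and in 31.2%, 31.8% and 36.2% of other B barcodes. In T barcodes at the same depth the share was 4.35%, 2.85% and 3.58%.

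Further genes of the early response were higher in each library. Dusp2, a nuclear phosphatase that switches off MAP kinases, stood at 469, 372 and 358 CPM against 86.8, 84.0 and 87.0 CPM. Plek, the protein kinase C substrate pleckstrin, was 2.34-, 2.79- and 2.59-fold higher, and the AP-1 subunit Junb 2.20-, 2.17- and 1.96-fold. Ier2, an immediate early gene with 22, 44 and 46 UMIs in members, was 3.57-, 2.42- and 2.49-fold higher. Myc, the driver of growth, had 14, 21 and 22 UMIs in thinned members, too few for the comparison, and its level was 108, 92.9 and 89.4 CPM against 17.9, 16.9 and 12.8. Egr2 had 7, 13 and 10 UMIs at 53.8, 57.5 and 40.7 CPM against 5.26, 3.62 and 1.69. Fos and Jun did not stand apart: Jun was at 0.684-, 1.28- and 0.991-fold, with intervals that include 1.

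Of the list of 22 early response genes, 7 were compared in all 3 libraries. Of these, 4 were at least 2-fold higher in each (Egr1, Cd83, Dusp2, Plek) and 6 were higher in each, with a median log2 ratio of 1.30 against -0.11 for all 1418 genes. A gene weak in other B barcodes, such as Egr1 at 24.0, 25.1 and 18.4 CPM, is compared only if it is high in members. The filter thus sets these counts and medians in part, here and in the lists below. The promoter window of Dusp2 (chr2:127336159-127338376, + strand) held the EGR motif 98 to 90 bases before the start, and of the windows at hand for 13 of the 15 genes furthest above other B barcodes, 2 held that motif and 1 the NF-kB motif, that of Nfkbia.

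NF-kB genes formed a further group above other B barcodes. Nfkbia, the inhibitor IkappaB-alpha that NF-kB itself induces, was at 415, 336 and 423 CPM against 144, 151 and 152 CPM. Bcl2a1b, a survival protein of the BCL2 family and an NF-kB target, was 3.90-, 2.98- and 4.64-fold higher, but near-identical copies of this gene lie beside it, so its count is uncertain. Rel, the subunit c-Rel, was at 815, 783 and 846 CPM, 2.45-fold (2.0 to 2.98), 2.01-fold (1.72 to 2.34) and 2.09-fold (1.81 to 2.40) above other B barcodes. Nfkb1, the subunit p50, was 1.99-, 1.72- and 1.85-fold higher. Nfkbiz, an inhibitor related to Nfkbid, had 24, 15 and 56 UMIs and was 4.49-, 1.54- and 4.45-fold higher, with an interval in free OVA that includes 1. Of 21 genes on this list, 6 were compared in all 3 libraries: 2 were at least 2-fold higher in each (Nfkbia, Bcl2a1b) and 5 were higher in each, with a median of 0.96. Ltb, a membrane cytokine on the list, was at 0.809-, 1.01- and 0.871-fold.

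Brakes on receptor signals were also higher. Samsn1, an adaptor that dampens B cell activation, was 2.85-, 2.35- and 2.97-fold higher, and Cd72, an inhibitory coreceptor, 1.80-, 1.73- and 1.60-fold. Il4i1, a secreted amino acid oxidase induced in activated B cells, was 3.15-, 2.25- and 2.91-fold higher. Of 22 feedback genes, 3 were compared in all 3 libraries, all 3 were higher in each and 1, Dusp2, was at least 2-fold higher.

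The receptor machinery itself differed less. Of 17 receptor signalling genes, 14 were compared in all 3 libraries, none reached 2-fold in all 3, and their median was -0.11, the same as that of all genes. Cr2, the complement receptor CD21 that lowers the threshold of the B cell receptor, was 1.82-, 1.28- and 1.54-fold higher. Nfatc1, a calcium-regulated transcription factor, was 2.10-, 2.29- and 2.11-fold higher with 21, 34 and 39 UMIs in members. Cd180, a receptor of the Toll-like family that is not on this list, was at 615, 482 and 634 CPM against 285, 248 and 274.

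**Figure D3:**
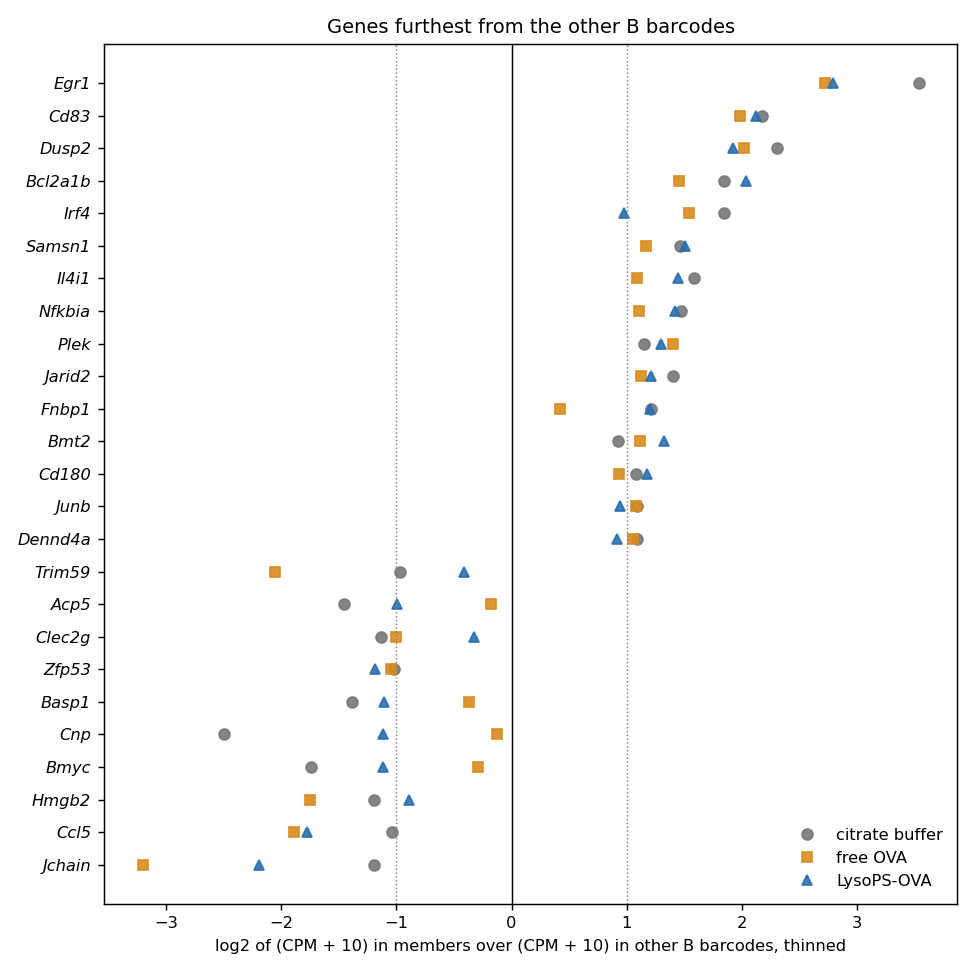
Log2 ratio of (CPM + 10) in members over other B barcodes of the same library (x axis, thinned to 2000 UMIs) for the 15 highest and 10 lowest named genes (y axis), with dotted lines at 2-fold. Egr1 is highest in each library, and Cd83, Dusp2 and Bcl2a1b follow in citrate buffer and LysoPS-OVA.

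Transcription factors of later B cell fate, surface molecules and antigen presentation moved unevenly. Irf4, which sets both germinal centre entry and plasma cell formation by its level, was at 231, 217 and 167 CPM against 57.1, 67.7 and 79.7, or 4.04-, 3.2- and 2.09-fold. Cd69, which keeps cells in the node, was 2.30-, 1.54- and 2.11-fold higher. Cd40, the receptor for T cell help, was 2.13-, 1.41- and 1.57-fold higher. Cd86, a ligand of CD28 on T cells, was at 1.59-, 1.47- and 0.934-fold, and its intervals in citrate buffer and LysoPS-OVA include 1. Of 15 costimulation genes, 4 were compared in all 3 libraries, 2 were higher in each and 1 lower, with a median of 0.03. Of 12 genes of MHC class II, 9 were compared in all 3, none reached 2-fold in all 3, and the median was 0.02.

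Genes of position in the node divided. Gpr183, the oxysterol receptor EBI2 that moves activated B cells to the outer follicle, was at 623, 522 and 931 CPM against 247, 340.3 and 449.8, or 2.52-fold (1.99 to 3.15), 1.53-fold (1.26 to 1.85) and 2.07-fold (1.80 to 2.37). Klf2, a factor of quiescence that maintains recirculation, was at 115, 301 and 264 CPM against 289, 341 and 446. Its folds were 0.400 (0.223 to 0.661), 0.883 (0.683 to 1.12) and 0.592 (0.456 to 0.757), so free OVA stood nearest to other B barcodes. S1pr1, the receptor for exit from the node and a target of Klf2, was at 0.417-, 0.658- and 0.713-fold. Of 18 genes of resting follicular B cells, 14 were compared in all 3 libraries. Of these, 4 were higher in each and 7 lower in each, with a median of -0.18, near the background of all genes compared.

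Genes of growth were higher without reaching 2-fold in each library. Of 25 genes of biosynthesis and the Myc programme, 8 were compared in all 3 libraries, 7 were higher in each, none was 2-fold in each, and the median was 0.54. Ncl, the nucleolar protein nucleolin, was 2.0-, 1.65- and 1.57-fold higher, and Ddx21, a helicase of ribosome assembly, 2.08-, 1.32- and 2.14-fold. Eif4a1, a translation factor, was 1.52-, 1.56- and 1.74-fold higher. Cell cycle genes did not follow. Hmgb2, high in dividing cells, was at 0.425-, 0.276- and 0.518-fold, and the 3 cell cycle genes compared in all libraries were lower in each, as were 639 of all 1418 genes. Ccnd2, the cyclin of early cell cycle entry, was the exception with 40, 28 and 42 UMIs: it was 3.17-, 2.53- and 2.62-fold higher.

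Among the genes furthest below other B barcodes were markers of antibody-secreting cells and of other lymphocytes. Jchain, the joining chain of secreted IgM and IgA, had 4, 4 and 3 UMIs, at 0.369-fold (0.100 to 0.95), 0.0722-fold (0.0196 to 0.185) and 0.133-fold (0.0275 to 0.391). Ccl5, a chemokine of T and NK cells, was at 146, 79.6 and 48.8 CPM against 310.5, 322 and 192. Zfp53, a zinc finger gene, had 5, 5 and 7 UMIs, at 0.436-, 0.392- and 0.368-fold. The other genes of the 10 lowest were Bmyc, Cnp, Basp1, Clec2g, Acp5 and Trim59, each past 2-fold in 1 or 2 libraries, and Hmgb2.

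Levels also differed with the number of rule genes seen in the barcode, over 0, 1, 2, 3 and 4 or more genes, though not every step went the same way. Cd83 went 202, 314, 609, 1302 and 977 CPM in citrate buffer, 196, 268, 466, 747 and 1500.0 in free OVA, and 229.6, 339.8, 479.8, 1207 and 1468 in LysoPS-OVA. Barcodes just outside the rule, with 2 genes, thus had intermediate Cd83. Egr1 went from 18.2 to 568, from 16.9 to 306 and from 16.2 to 371 CPM over the same range. Dusp2 went from 78.6 to 636, from 73.8 to 639 and from 72.4 to 581, and Rel from 288 to 1045, from 341 to 1236 and from 373 to 1161. Myc stayed at 32.5 to 81.4 CPM with exactly 3 genes and stood at 159, 222 and 258 with 4 or more, a class of 22, 36 and 31 thinned barcodes.

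Klf2 went the other way. It went 304, 259, 235, 151 and 45.5 CPM in citrate buffer and 461, 445, 344, 315 and 113 in LysoPS-OVA. In free OVA it was 347, 329.8, 339.9 and 344 up to 3 genes and 208 (117 to 344) with 4 or more. Ighd, the IgD heavy chain of naive B cells, lay between 1056 and 1371 CPM in all classes and libraries.

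**Figure D4:**
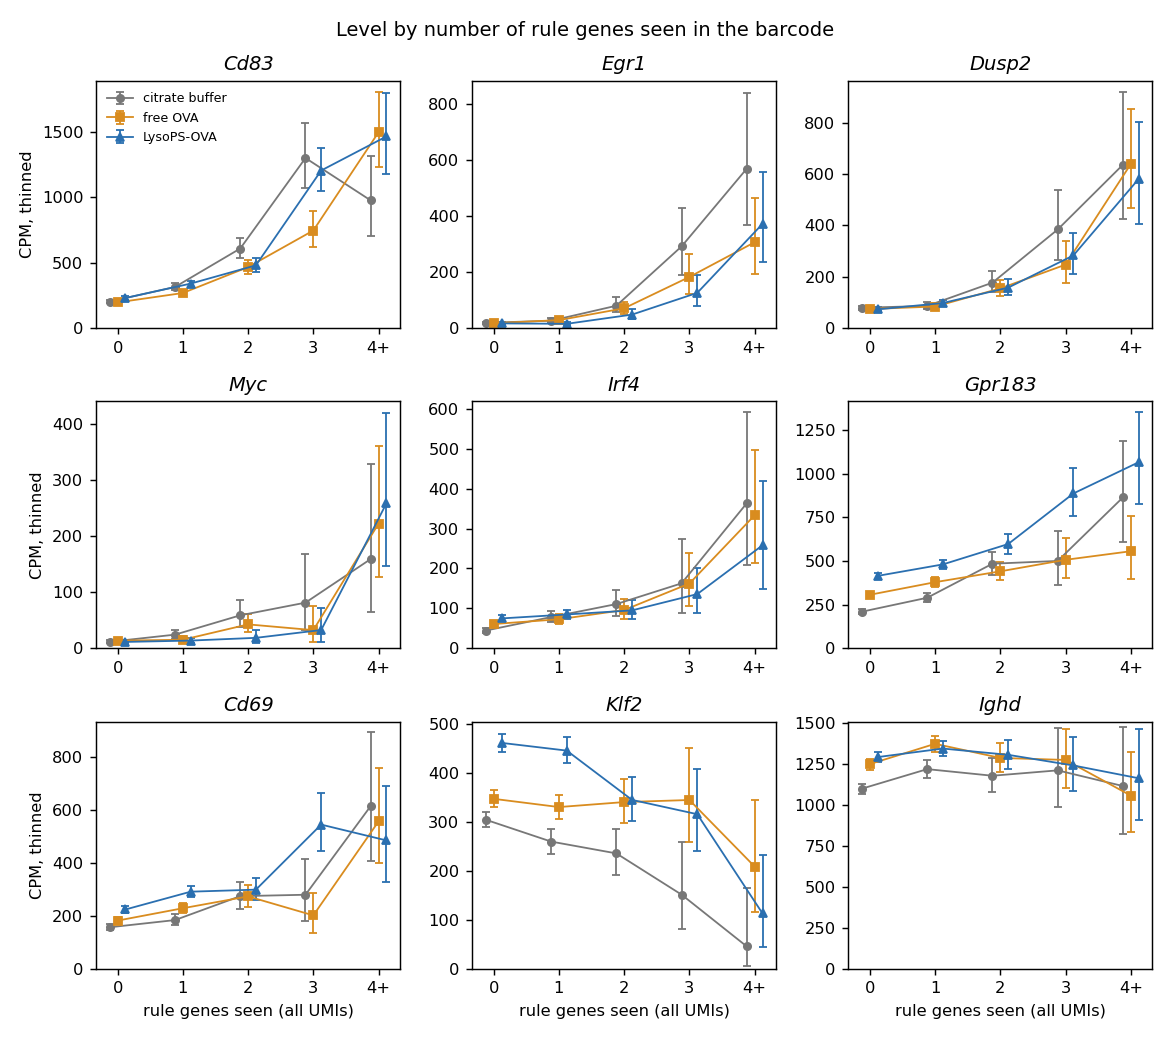
Level (CPM, y axis, thinned to 2000 UMIs) of 9 genes by the number of rule genes seen in the barcode (x axis, all UMIs), with exact Poisson 95% intervals. Cd83, Egr1, Dusp2, Myc and Irf4 are higher with 4 or more genes than with 0 in each library, Klf2 is lower, and Ighd lies between 1056 and 1371 CPM.

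Members carried the receptor of unswitched B cells. An Ighd UMI was seen in 97.0%, 97.3% and 100% of members and in 84.2%, 85.1% and 93.1% of other B barcodes. These shares are over all UMIs, and members were deeper. In thinned barcodes the shares were 86.2%, 82.3% and 87.8% in members and 80.1%, 83.8% and 87.3% in other B barcodes. At equal depth the gap was thus smaller, and in free OVA members were below other B barcodes. Barcodes with more UMIs of IgG, IgA or IgE heavy chains than of Ighm and Ighd numbered 0 of 67 members (up to 5.36%), 2 of 113 (1.77%) and 0 of 124 (up to 2.93%). In other B barcodes they were 4.38%, 5.57% and 3.45%. Ighm, the IgM heavy chain, was at 1.16-, 0.953- and 0.847-fold and Ighd at 1.04-, 0.934- and 0.933-fold of other B barcodes. Lambda chains outnumbered kappa chains in 9, 7 and 10 members. At least 3 of 8 germinal centre genes were seen in 2, 3 and 0 members, or 2.99%, 2.65% and 0%, against 4.75%, 4.13% and 2.61% of other B barcodes.

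Summed over all UMIs, markers of other cells were lower in members than in other B barcodes, apart from haemoglobin in free OVA. Over all UMIs, the 14 T cell markers summed to 409, 247 and 277 CPM in members against 594, 267 and 369. The 18 myeloid and dendritic markers summed to 469.8, 465 and 304 CPM against 689, 586 and 561, with 6, 5 and 10 of them at 0 in members, among them Itgam, C1qb, Clec10a and Siglech in each library. As a share of barcodes with a UMI, single myeloid genes differed in direction, and members were deeper. Tyrobp was seen in 16.4%, 18.6% and 16.1% of members and 9.73%, 10.3% and 10.1% of other B barcodes. Cst3 was seen in 77.6%, 78.8% and 70.2% against 56.5%, 66.6% and 73.5%. Fcer1g was seen in 1.49%, 1.77% and 0% against 2.40%, 2.21% and 1.05%, and Lyz2 in 0%, 1.77% and 4.84% against 6.29%, 3.37% and 1.62%. Their part in the contrasts was not tested. The 10 NK markers summed to 123, 78.0 and 54.9 CPM against 348, 289 and 199.7, and the 12 plasma cell genes to 698, 606 and 606 against 819, 1095 and 823. The 11 stromal markers were at 0 in members for 10, 9 and 8 genes. The 12 B cell markers summed to 18269, 20202 and 21433 CPM in members and 18413, 19815 and 22489.8 in other B barcodes. In free OVA, 5886 of the 5933 haemoglobin UMIs of members lay in a single barcode.

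Receptors for the lipid of the nanoparticle lay near the level of other B barcodes. P2ry10 and Gpr174, which bind lyso-phosphatidylserine, were at 123, 177 and 146 CPM and at 138, 177 and 236 CPM in members, or 0.875-, 1.07- and 0.705-fold and 0.743-, 0.882- and 1.15-fold of other B barcodes. The intervals include 1 except for P2ry10 in LysoPS-OVA (0.492 to 0.979). Gpr34, the remaining receptor of this lipid, had 1, 0 and 0 UMIs. Of the genes of tolerance, Il10 had 1, 1 and 0 UMIs in all members, and Tgfb1 was at 1.04-, 1.21- and 0.875-fold with intervals that include 1.

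Between libraries, members were compared on all their UMIs, 464063, 922976 and 819748, summed within each library. Membership was also set on all UMIs, so the rule was easier to meet in a deeper barcode. Members held a median of 5559, 7662 and 5730.5 UMIs, and the part of depth in the differences between libraries was not tested. The rule set the levels of its own genes in part, so these are a description. Egr3 was at 267, 263 and 284 CPM, Rasgef1b at 308, 322 and 316, and Nr4a1 at 106, 130.01 and 139. Nfkbid was at 189.6, 173 and 259 CPM, and 14.6% of its 212 UMIs in LysoPS-OVA members lay in a single barcode. Mir155hg was at 114, 67.2 and 84.2 CPM, and Ccl4 at 0, 211 and 1.22 CPM, from the barcode described above in free OVA.

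The activation genes outside the rule that follow differed by less than 2-fold. Egr2, with 26, 38 and 24 UMIs, was at 56.0, 41.2 and 29.3 CPM. For it LysoPS-OVA stood at 0.523-fold (0.287 to 0.947) of citrate buffer, on too few UMIs to pass the filter. Cd83 was at 991, 838 and 1072 CPM, with LysoPS-OVA 1.28-fold (1.16 to 1.41) above free OVA and 1.08-fold (0.965 to 1.21) above citrate buffer. Egr1 was at 246, 217 and 177 CPM, and LysoPS-OVA stood at 0.720-fold (0.560 to 0.929) of citrate buffer. Irf4 was at 179, 178 and 168 CPM. Myc was at 116, 79.1 and 100.03 CPM, with free OVA at 0.680-fold (0.472 to 0.985) of citrate buffer. Cd69 was at 328, 339 and 481 CPM and Gpr183 at 506, 536 and 749, so LysoPS-OVA was highest in both. Against citrate buffer these were 1.47-fold (1.21 to 1.78) and 1.48-fold (1.27 to 1.73), and in other B barcodes 1.52-fold and 1.82-fold.

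Klf2 set citrate buffer apart. It was at 116, 264 and 262 CPM, and LysoPS-OVA stood 2.25-fold (1.67 to 3.10) and free OVA 2.27-fold (1.69 to 3.11) above citrate buffer. In other B barcodes it was at 262, 324 and 421 CPM, 1.61-fold and 1.24-fold. S1pr1 was at 79.7, 135 and 126 CPM, in the same order. Cd86 was level at 149, 167 and 155 CPM in members, while in other B barcodes it was at 94.3, 107 and 156.

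Few genes differed by 2-fold between libraries. Against citrate buffer, 33 genes of 3463 (0.953%) were at least 2-fold higher in LysoPS-OVA and 25 (0.722%) lower, and 38 of 3442 (1.1%) were higher in free OVA and 23 (0.668%) lower. Between LysoPS-OVA and free OVA, 5 of 3711 (0.135%) were higher in LysoPS-OVA and 15 (0.404%) lower. The 3 comparisons share libraries and are not independent. Of the 58, 61 and 20 genes past 2-fold, 12, 9 and 7 were also past 2-fold in other B barcodes. The share of all compared genes past 2-fold in other B barcodes is not given, so these overlaps have no background. Other B barcodes held 15834554, 21883115 and 20821334 UMIs, so ratios in members carry more counting error.

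Several genes higher than in citrate buffer were higher in other B barcodes too. Nr3c2, the mineralocorticoid receptor, had 2, 81 and 62 UMIs in members, at 4.31, 87.8 and 75.6 CPM, and other B barcodes were at 12.9, 85.7 and 64.1. Vmn2r96, annotated as a vomeronasal receptor, was at 32.3, 168 and 231 CPM in members and 38.6, 131 and 211 in other B barcodes. Cpne4, a calcium-dependent membrane-binding protein, was at 32.3, 115 and 183 CPM, against 74.1, 158 and 189 in other B barcodes. The chaperones Hsph1 and Dnaja1 were at 38.8, 81.3 and 127 CPM and at 231, 454 and 638, with 192, 341 and 481 for Dnaja1 in other B barcodes.

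Other genes stood apart in members more than in other B barcodes. Hivep3, a zinc finger protein that binds NF-kB sites, was at 185, 55.3 and 48.8 CPM with UMIs in 36, 30 and 24 members, and at 54.7, 36.9 and 33.7 CPM in other B barcodes. Parp8 was at 222, 87.8 and 96.4 CPM in members and 117.8, 116 and 123 in other B barcodes, with 27.2% of its citrate buffer UMIs in a single barcode. L3mbtl3, a reader of histone methylation, was at 56.0, 139 and 155 CPM in members and 113, 128 and 135 in other B barcodes. Esyt1 was at 17.2, 50.9 and 51.2 CPM and Magi3 at 21.5, 76.9 and 57.3, against 50.4, 52.7 and 51.4 and against 56.8, 59.95 and 59.2 in other B barcodes. The difference between members and other B barcodes was not tested.

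Several of the lowest ratios between libraries, though not all, rested on few barcodes in the higher library. Mctp1 and Fmnl2, at 86.2 and 84.0 CPM in citrate buffer, had 97.5% and 94.9% of their UMIs in a single barcode there. Without doublet calls Mctp1 gave a log2 ratio of 0 and Fmnl2 of 1.17 for LysoPS-OVA over citrate buffer, in place of -3.27 and -1.73. Agbl1 was at 94.8, 18.4 and 6.10 CPM with 44, 17 and 5 UMIs, and 45.5% of the citrate buffer UMIs lay in a single barcode. Tox, a nuclear factor best known from T cells, was at 103, 39.0 and 15.9 CPM and Top2a, the topoisomerase of dividing cells, at 66.8, 16.3 and 7.32. Their citrate buffer UMIs lay in 18 and 13 members, with 33.3% and 25.8% in a single barcode. In other B barcodes Tox was at 96.3, 45.5 and 69.7 CPM and Top2a at 90.1, 49.9 and 32.7. Ccl4, at 211 CPM in free OVA, was the single barcode described above.

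Between LysoPS-OVA and free OVA the highest genes were Ankrd33b, at 86.2, 55.3 and 129 CPM over the 3 libraries, Zfp746 at 15.1, 20.6 and 53.7, Colec12 at 56.0, 28.2 and 68.3, Tespa1 at 66.8, 57.4 and 128, Lclat1 at 56.0, 22.8 and 54.9 and Rrp15 at 53.9, 26 and 61.0. Tespa1 takes part in calcium signals of the T cell receptor and Rrp15 in ribosome assembly. Def8 was at 116, 148 and 32.9 CPM in members and at 92.9, 101 and 46.5 in other B barcodes, and Irf2bp2, a transcriptional corepressor, at 51.7, 67.2 and 15.9 in members. For Colec12, Lclat1 and Rrp15 free OVA was the low library, with citrate buffer close to LysoPS-OVA.

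Biosynthesis genes were lowest in free OVA members. The list of 25 genes summed to 6547, 4238 and 5394 CPM. All 20 of its genes compared were higher in LysoPS-OVA than in free OVA, with a median log2 ratio of 0.34 against 0.03 for all genes, and in other B barcodes the median of the list was 0.02. Against citrate buffer, 2 of 19 genes were higher in free OVA, with a median of -0.57, and 5 of 20 in LysoPS-OVA, with a median of -0.24. In other B barcodes those medians were -0.29 and -0.25. All genes compared in members had medians of 0.007 for free OVA and 0.02 for LysoPS-OVA over citrate buffer. The share of all genes that were higher is not given here, so the counts of list genes have only these medians as background. Npm1, the nucleolar protein nucleophosmin, was at 1278, 709 and 982 CPM, with LysoPS-OVA 1.39-fold (1.25 to 1.54) above free OVA. Eif5a, a translation factor, was at 498, 286 and 383 CPM, 1.34-fold (1.13 to 1.58). Ncl was at 1131, 677 and 704 CPM, 1.04-fold (0.927 to 1.17) between these libraries. None of the genes on this list reached 2-fold between any pair of libraries.

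Most genes on a list of immediate early and heat shock genes, which digestion of tissue can raise, were lower in citrate buffer members. The median of the list was lower in citrate buffer in other B barcodes too. For LysoPS-OVA over citrate buffer, 13 of 14 genes compared were higher in members, with a median log2 ratio of 0.62, and 0.63 in other B barcodes. For free OVA over citrate buffer, 12 of 15 were higher, with medians of 0.48 and 0.54. The medians of all genes compared in members were 0.02 for LysoPS-OVA and 0.007 for free OVA over citrate buffer. The share of all genes that were higher is not given. Egr1, also an immediate early gene, went the other way, at 246, 217 and 177 CPM in members and 26.9, 25.5 and 18.3 in other B barcodes. Among the listed genes, Fos was at 25.9, 84.5 and 78.1 CPM in members, Jun at 49.6, 142 and 124, and Hsp90aa1, a chaperone, at 409, 453 and 793. These genes overlap in part with the early response of activated B cells, and the part of handling in the differences between libraries was not tested.

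**Figure D5:**
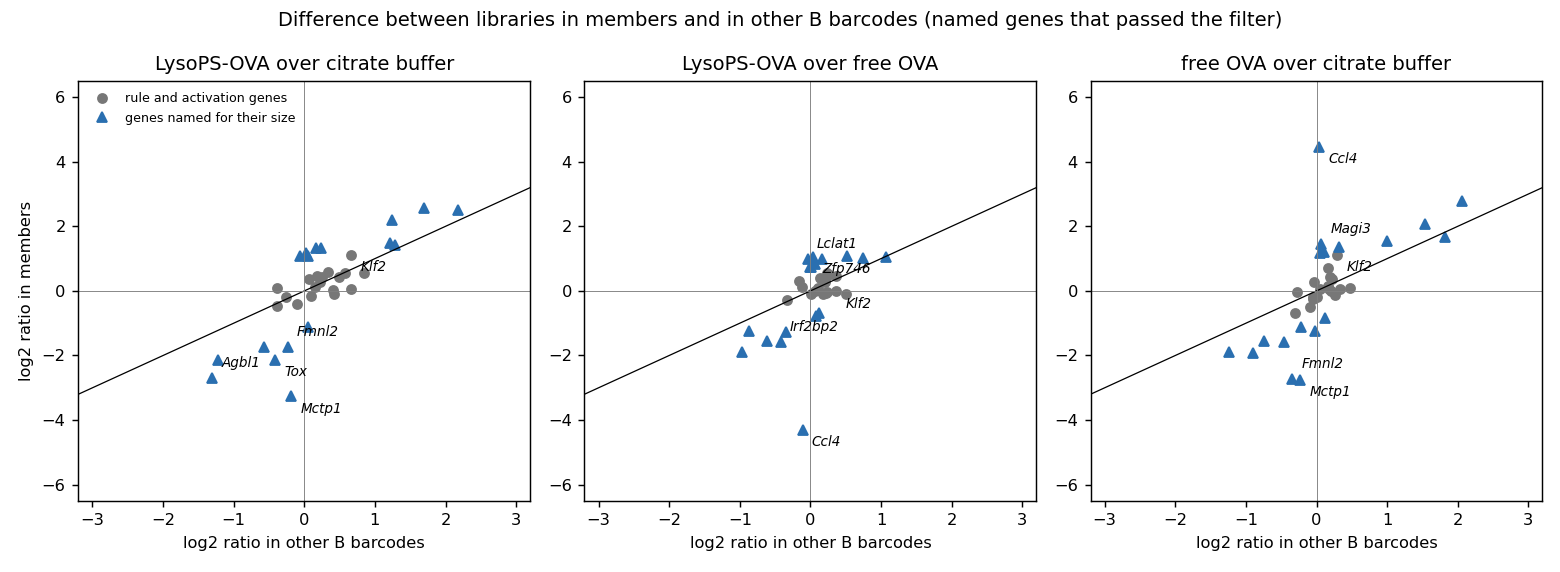
Log2 ratio between 2 libraries in members (y axis) against the same ratio in other B barcodes (x axis) for the named genes that passed the filter, with the line of equality. Rule and activation genes drawn as circles lie within 1 log2 unit of 0 apart from Klf2. Triangles are genes named for their size, among them the rule gene Ccl4 and Mctp1 and Fmnl2, whose values rest on single barcodes.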

How the data were processed

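The authors deposited matrices of whole UMI counts, genes by barcodes, from 3' single-cell libraries (kit v3.1, per the labels' protocols), and the submitters' processing notes name Cell Ranger 7.2.0 and the build mm10. The intron setting was not given in the sources used here. From these counts, barcodes were filtered, members chosen, thinned and summed as described, with scanpy 1.11.5 (Scrublet), scipy 1.17.1, numpy 2.4.6 and pandas 2.3.3 under Python 3.11.15. Doublet calls were kept, and left out as an alternative. For shares the Clopper-Pearson exact interval was used, with log intervals of Katz for their ratios, exact Poisson for CPM and conditional binomial for folds. The members, gene lists and tests were chosen with earlier results of these data known. The calculations were tested on simulated data. Gene positions came from GENCODE M21.

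Named genes were the rule genes and Cd83, the 15 highest and 10 lowest of one sign in all 3 libraries against other B barcodes, the 6 highest and 6 lowest per pair of libraries, the 4 at each end of the difference from other B barcodes, up to 4 per list and a fixed set (Myc, Irf4, Cd69, Cd86, Egr1, Klf2 and others). Further list genes were named after their values were seen. Rule genes, antigen receptor, ribosomal protein, mitochondrial and haemoglobin genes and unnamed models were left out of the rankings.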

Additional observations from a re-analysis of the deposited data

Results flagged for a closer look

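Haemoglobin genes moved in opposite directions in members against other B barcodes. For Hba-a1 the log2 ratio was -4.58 with buffer, 2.22 with free OVA and -2.97 with LysoPS-OVA. For Hbb-bs it was -4.18, 2.61 and -2.60. The difference between libraries was not tested. In free OVA a single member of 11530 UMIs held 5886 of the 5933 haemoglobin UMIs, and the next held 19.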

How the results depend on the processing

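The ratio of shares of LysoPS-OVA over citrate buffer was 0.757 when thinned to 1000 UMIs, and for members by the rule only the unthinned ratios to citrate buffer had intervals above 1. Against other B barcodes, 146, 57 and 64 genes passed 2-fold (buffer, then free OVA, then LysoPS-OVA). These counts were 278, 108 and 109 at 1000 UMIs, 1108, 423 and 374 with no filter on low values, 484, 250 and 350 with at least 4 of the 6 genes, 812, 491 and 340 without barcodes holding other cell markers (added after seeing the data, 10, 20 and 29 members) and 535, 547 and 399 with the rule applied to thinned UMIs (also added). Citrate buffer gave 94 without thinning, and LysoPS-OVA 98 with a pseudocount of 1 CPM. Cd83 was at least 2-fold higher in all 3 libraries under each of these settings except the removal of other cell markers, where no gene was. With 10, 20 and 29 members left there, the fixed floor on UMIs let almost no gene pass as higher. In citrate buffer 1 gene was higher and 811 were lower, of 2007 compared. The removal thus cannot show whether Cd83 or other genes stayed higher. It gave Ccl5 0.36 and Cd69 -0.10 (median log2) on these few members, and took 83.6%, 82.3% and 75.8% of members. Of the 11 genes at least 2-fold higher in all 3 libraries, 4 were kept at 1000 UMIs, 2 with at least 4 of the 6 genes, 2 with the rule on thinned UMIs, 8 with another random draw and 9 to 11 under the other settings run, apart from the removal of other cell markers. The floor on UMIs also weighs on the counts of 4, 2 and 2, since members held fewer UMIs under those settings.

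Between libraries, the counts of 58, 20 and 61 genes (LysoPS-OVA over citrate buffer, over free OVA, free OVA over citrate buffer) were 99, 35 and 110 with a pseudocount of 1 CPM and 352, 72 and 327 with no filter. Thinned to 2000 UMIs, 30 and 40 genes differed from citrate buffer (LysoPS-OVA, then free OVA), and 9, 8 and 12 of the original genes were kept. Thinning left 1195 and 1128 genes compared with citrate buffer, in place of 3463 and 3442. Without doublet calls 37, 18 and 43 of the original genes were kept, and by the mean of per-barcode CPM 36, 14 and 44. Without doublet calls Mctp1 was at 0 and 0.30 and Fmnl2 at 1.17 and 0.092 (log2 over citrate buffer, LysoPS-OVA then free OVA). Fmnl2 was at 0.22 for LysoPS-OVA over citrate buffer by the mean of per-barcode CPM. Without the Ccl4 and haemoglobin barcodes (added) Ccl4 was at 0.17 for LysoPS-OVA over free OVA and 0 for free OVA over citrate buffer. Leaving out replicates was not possible with 1 library a group. No paired analysis was possible because each group has 1 library.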
